A study of Mus musculus with 2 samples.

Results

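Early microglia and macrophage genes were a list of 30 mouse genes in 3 classes, found by symbol in both deposited gene tables among 43346 annotated genes, and all 30 were found. The pan-macrophage class held 21 genes of the colony-stimulating factor receptor, lineage transcription factors, adaptors, immunoglobulin receptors, complement C1q and lysosomal proteins. The microglia-enriched class held 5 genes (Cx3cr1, Trem2, P2ry12, Tmem119 and Siglech), and the border macrophage class held 4 (Mrc1, Cd163, F13a1 and Pf4). Membership was set by gene symbol, and no threshold on a measured value entered the rule.

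The series held 1 group of 2 total RNA-seq libraries from whole forebrain of healthy B6NCrl (C57BL/6NCrl) mouse embryos at embryonic day 11.5, with no treatment, second age or second tissue. Replicate 1 was made from a pool of 109 embryos and replicate 2 from a separate pool of 88, each of mixed sex, and library preparation used 10 ng of RNA above 200 nucleotides plus spike-ins. The tissue was not sorted, so each value is an average over neural, vascular, blood and connective tissue cells and over many embryos. Annotated genes held 23165260 expected counts in replicate 1 and 33597028 in replicate 2, where an expected count is a read count in which reads shared by several transcripts are divided among them.

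Microglia are the resident macrophages of the brain. They descend from yolk sac progenitors that enter the neural tube around the time it is vascularised, and they depend on the receptor Csf1r and on the transcription factors Spi1 (PU.1) and Irf8. Border macrophages of the meninges, perivascular spaces and choroid plexus share this origin and are told apart in the adult by genes such as Mrc1, Pf4 and F13a1, while P2ry12, Tmem119 and Siglech mark adult microglia. Both kinds of cell carry the pan-macrophage genes, some of which also occur in monocytes and neutrophils.

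Sequences of 2 kinds are shown for members the levels turn on. Spi1 encodes an ETS-family factor whose binding sites contain GAGGAA, so the RefSeq promoter windows (GRCm38.p6, 250 bases before to 50 after a gene's start) were searched for GAGGAA on both strands. It was found in 19 of 28 windows of members (67.9%), belonging to 17 of the 23 members with a window, and in 28.3% of all 32851 windows. The other 7 members, Csf1r, Cd14, Spi1, Adgre1, Tyrobp, Tmem119 and C1qa, were not searched. Windows of the same member can overlap, and in Fcgr3 the same site was counted in both. A match describes the letters of the window and no binding was measured here. The 250 bases upstream of 4 members follow, read 5′ to 3′ on the gene's strand with GAGGAA or its reverse complement in capitals. They are the 4 members of highest level whose window held the motif and overlapped none of the member's own annotated exons. The window also had to end within 50 bases of the start of the member's leading transcript. Overlap with exons of other genes was not checked.
Pf4, chr5:90772185-90772434, plus strand: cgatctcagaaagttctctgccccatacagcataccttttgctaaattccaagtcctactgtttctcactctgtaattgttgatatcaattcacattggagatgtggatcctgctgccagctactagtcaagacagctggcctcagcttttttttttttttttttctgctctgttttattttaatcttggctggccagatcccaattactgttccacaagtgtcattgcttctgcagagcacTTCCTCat
C1qb, chr4:136886201-136886450, minus strand: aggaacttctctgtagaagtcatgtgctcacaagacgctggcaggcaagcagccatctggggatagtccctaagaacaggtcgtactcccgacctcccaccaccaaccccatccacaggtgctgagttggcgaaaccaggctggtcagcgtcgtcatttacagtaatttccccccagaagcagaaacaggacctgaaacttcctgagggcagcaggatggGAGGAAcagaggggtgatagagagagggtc
Cd68, chr11:69666171-69666420, minus strand: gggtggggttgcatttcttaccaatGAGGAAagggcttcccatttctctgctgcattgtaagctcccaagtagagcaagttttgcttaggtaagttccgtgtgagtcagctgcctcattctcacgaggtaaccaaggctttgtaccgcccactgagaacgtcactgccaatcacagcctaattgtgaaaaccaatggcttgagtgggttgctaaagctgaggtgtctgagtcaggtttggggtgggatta
Ctss, chr3:95526536-95526785, plus strand: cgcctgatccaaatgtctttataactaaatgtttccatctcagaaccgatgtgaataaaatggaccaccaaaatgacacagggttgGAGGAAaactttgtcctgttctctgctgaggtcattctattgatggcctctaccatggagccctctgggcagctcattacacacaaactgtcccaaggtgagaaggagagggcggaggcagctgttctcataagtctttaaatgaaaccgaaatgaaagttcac
In Pf4 the motif lay on the opposite strand and began 8 bases before the RefSeq start. In C1qb it began 30 bases before the start, in Ctss 164 and in Cd68 225, each on the gene's strand.

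Tyrobp (DAP12) and Fcer1g, a pair of adaptors, signal through an immunoreceptor tyrosine-based activation motif (ITAM), whose coding sequence is shown from the GENCODE M21 transcripts with the 2 tyrosine codons in capitals. Each stretch is 45 bases of joined coding exons that span an intron, codons 92 to 106 of the 114 of Tyrobp-201 and codons 65 to 79 of the 86 of Fcer1g-201, and in each 7 codons separate the 2 tyrosine boxes.
Tyrobp ITAM: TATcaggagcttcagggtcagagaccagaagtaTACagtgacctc
Fcer1g ITAM: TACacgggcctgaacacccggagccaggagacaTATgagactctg
The 3 C1q genes encode the chains of the complement recognition molecule, each with a collagen-like stem built of repeated glycine-X-Y triplets. Their longest uninterrupted glycine-X-Y runs are shown with the glycine codons in capitals, and they measured 16 triplets in C1qa, 29 in C1qb and 16 in C1qc.
C1qa codons 62 to 109: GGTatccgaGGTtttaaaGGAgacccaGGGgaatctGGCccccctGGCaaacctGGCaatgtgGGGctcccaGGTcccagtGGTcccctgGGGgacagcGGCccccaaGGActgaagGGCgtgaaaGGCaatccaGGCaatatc
C1qb codons 31 to 117: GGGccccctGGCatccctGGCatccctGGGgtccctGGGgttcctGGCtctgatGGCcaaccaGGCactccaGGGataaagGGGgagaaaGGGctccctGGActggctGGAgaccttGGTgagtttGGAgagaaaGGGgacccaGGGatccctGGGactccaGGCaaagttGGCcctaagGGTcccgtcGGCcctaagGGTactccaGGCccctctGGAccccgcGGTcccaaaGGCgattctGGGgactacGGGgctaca
C1qc codons 68 to 115: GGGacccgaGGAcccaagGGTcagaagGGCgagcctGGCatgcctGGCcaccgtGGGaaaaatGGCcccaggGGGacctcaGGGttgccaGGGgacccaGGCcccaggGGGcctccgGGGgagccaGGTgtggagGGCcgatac
The C1qb run spans an intron, and the other 2 lie within an exon.

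Levels are given in TPM, the abundance per transcript length scaled per library over all entries, spike-ins included, and a gene was called detected at 1 TPM or more in both libraries. By this measure 23 of the 30 members were detected, against 32.9% of all 43346 annotated genes and 58.6% of 21474 protein-coding genes. Detection covered 17 of 21 pan-macrophage, 3 of 5 microglia-enriched and 3 of 4 border macrophage genes. The 7 that did not reach the level were Fcgr1, Cd14, Itgam, Cybb, Trem2, Siglech and Cd163. Cd163 alone had no count in either library. Together the members made up 0.0194% of all TPM in replicate 1 and 0.0178% in replicate 2 (0.0186% ± 0.00117, SD, n = 2). The median member stood at 2.10 and 2.01 on the log2(TPM + 1) scale, beside 2.32 and 2.29 for protein-coding genes and 0.04 and 0.07 for all genes. The expected counts of 27 members were whole in both libraries to within 0.005, and the other 3, Csf1r, Fcgr3 and Lyz2, had a fractional count in at least 1 library. In an unsorted tissue, fewer macrophages and less of a transcript per macrophage cannot be told apart.

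**Figure D1:**
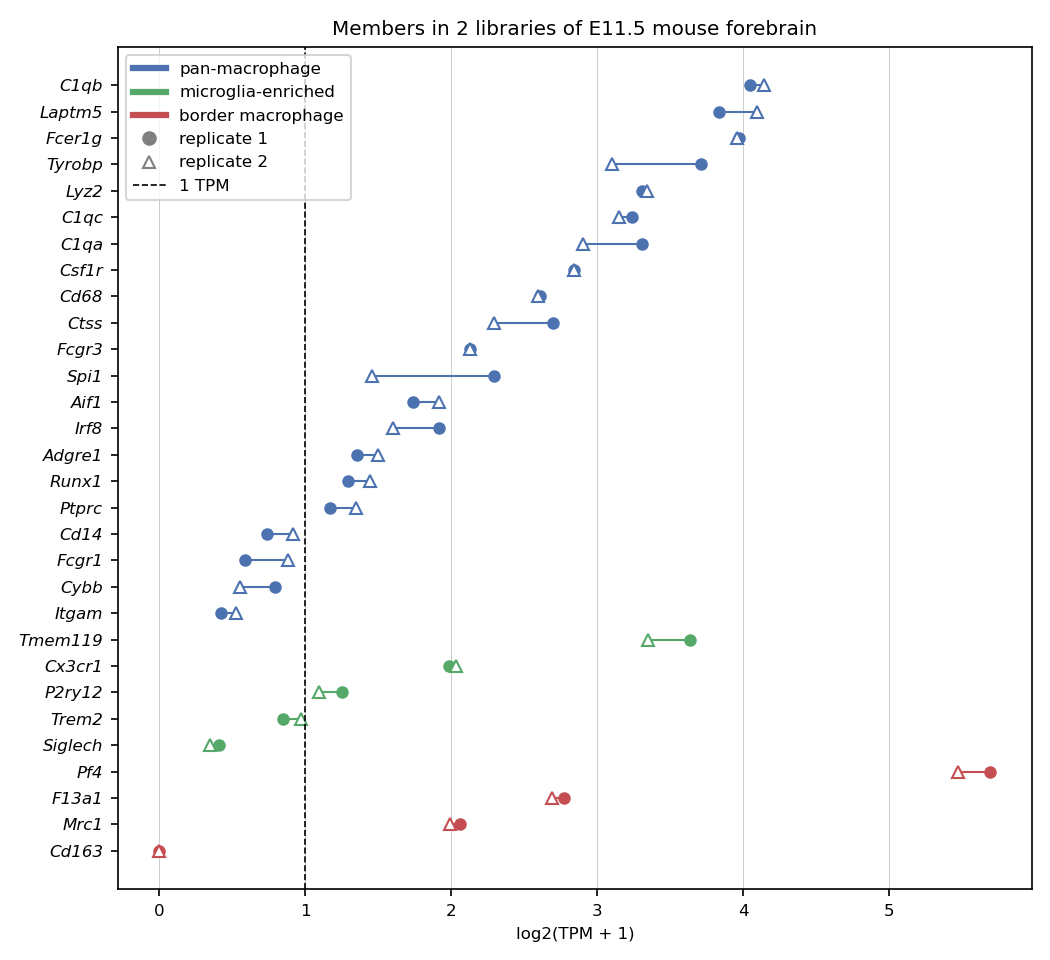
Level of each of the 30 members as log2(TPM + 1) on the horizontal axis, with replicate 1 as a filled circle, replicate 2 as an open triangle and a line joining them, coloured by class. Pf4 stands highest, Cd163 is at 0 in both libraries, and the dashed line marks 1 TPM, which 23 members reached in both.

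The receptor Csf1r, on which the survival of microglia depends, had 6.17 TPM in replicate 1 and 6.18 in replicate 2 from 431 and 629 expected counts (ENSMUSG00000024621.11, chromosome 18, 61100598 to 61132149, GRCm38). It ranked 10th of the 30 members, near the middle of protein-coding genes (percentile 54.1). Exons of Hmgxb3 overlap it on the other strand.

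The lineage transcription factors were lower than the receptor. Spi1, the master regulator of myeloid fate, had 3.89 TPM in replicate 1 and 1.74 in replicate 2. Its partner Irf8 had 2.77 and 2.03 TPM. Runx1, needed for the emergence of blood progenitors and for their macrophage progeny, had 1.45 and 1.72 TPM. Spi1 is the member for which the TPM of the 2 libraries lay furthest apart, with a log2 ratio of 1.16 in TPM, while its counts were 62 and 74 and gave a log2 ratio of 0.28 after scaling by depth (95% interval -0.24 to 0.78). The libraries divided those counts differently among transcripts. Its main transcript Spi1-201, of 2034 nucleotides, had 1.66 TPM in replicate 1 and 1.73 in replicate 2. In replicate 1 the 402-nucleotide Spi1-203 received 5.74 counts and 1.24 TPM, and in replicate 2 it received none. The 544-nucleotide Spi1-204 had 4.11 and 0.11 counts. The main transcript was thus at nearly the same level in both libraries, and the gap in Spi1 TPM lay in the short ones.

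Genes of the haematopoietic and macrophage surface covered a wide range. Laptm5, a lysosomal membrane protein of blood cells, had 13.3 TPM in replicate 1 and 16.1 in replicate 2 and was the third highest member. Adgre1, which encodes the F4/80 antigen, had 1.56 and 1.83 TPM. Ptprc, which encodes the pan-leukocyte phosphatase CD45, had 1.25 and 1.55 TPM. These 3 genes were detected in both libraries, with Laptm5 far above the other 2. Aif1, which encodes the actin-binding protein IBA1 used to stain microglia, had 2.34 and 2.78 TPM from 25 and 38 counts. Itgam, the integrin alpha chain of complement receptor 3 (CD11b), had 0.34 and 0.44 TPM from 22 and 40 counts. Its counts were assigned to different transcripts in the 2 libraries, and the annotation also has Gm49368 on the same strand, so the level of Itgam is uncertain. Its deposited posterior mean TPM was 1.10 and 1.16, above the detection level. Itgb2, which encodes its beta partner, had 0.95 and 1.04 TPM. The endotoxin co-receptor Cd14 had 0.67 and 0.89 TPM from 15 and 29 counts.

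The ITAM adaptors were among the most abundant members. Fcer1g, the common gamma chain of Fc receptors, had 14.7 and 14.5 TPM (14.6 ± 0.0849, SD, n = 2). Tyrobp, the partner of Trem2 and Siglech, had 12.1 and 7.59 TPM. Of the receptors that signal through them, those compared here were lower. Fcgr3, a low-affinity IgG receptor, had 3.37 and 3.38 TPM, and the high-affinity receptor Fcgr1 had 0.50 and 0.84. The TPM of Fcer1g was 4.35 and 4.30 times that of Fcgr3 and 29.3 and 17.3 times that of Fcgr1. The TPM of Tyrobp was 15.1 and 7.91 times that of Trem2. In both libraries each adaptor thus exceeded the receptors compared with it here. Fcgr1 had 19 and 46 counts and Trem2 14 and 21, so the size of those ratios is uncertain. Among 9 other genes of ITAM signalling, chosen as kinases, phosphatases and adaptors downstream, 7 were detected. The Src-family kinase Lyn had 7.30 and 6.32 TPM. Fermt3, the integrin activator kindlin-3, had 5.28 and 5.54 TPM, and the lipid phosphatase Inpp5d had 3.88 and 2.77. Plcg2, the phospholipase of the pathway, had 2.15 and 1.58 TPM.

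All 3 C1q chains were detected. C1qb was the second highest member at 15.5 and 16.7 TPM (16.1 ± 0.813, SD, n = 2). C1qc had 8.43 and 7.87 TPM, and C1qa had 8.90 and 6.49. The order of the lower pair differed between the libraries: C1qa exceeded C1qc in replicate 1, and C1qc exceeded C1qa in replicate 2. C1qb was 1.75 and 2.57 times C1qa and 1.84 and 2.12 times C1qc in TPM. The genes are neighbours on the minus strand of chromosome 4, with C1qb at 136880129 to 136886187, C1qc at 136889804 to 136893065 and C1qa at 136895917 to 136898803. C1qa and C1qb each had a single annotated transcript, and C1qc-201 held 98.9% and 100% of C1qc TPM. Other genes of the complement cascade were much sparser than C1q. Of 7, 2 were detected, among them Cfb at 2.60 and 2.05 TPM, while C2 had 1.33 and 0.83 and C1ra 0.30 and 0.07. C3, the central component, had 1 count in replicate 1 and 0 in replicate 2.

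Among genes of the lysosome and the phagocyte's killing machinery, lysozyme Lyz2 had 8.91 and 9.15 TPM. Cd68, a lysosomal glycoprotein used as a phagocyte marker, had 5.11 and 5.03 TPM. The protease Ctss (cathepsin S) had 5.47 and 3.89. All 3 were detected, and Lyz2 and Cd68 kept nearly the same level in both libraries. Cybb, the catalytic subunit of the phagocyte NADPH oxidase (gp91phox), was not, at 0.73 and 0.47 TPM from 32 and 30 counts. Its membrane partner Cyba (p22phox), which other cell types also express, had 42.8 and 38.7 TPM. Cytosolic subunits were closer to Cybb, among them Ncf4 at 6.49 and 3.71 TPM and Rac2 at 2.36 and 1.66.

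The microglia-enriched class was led by Tmem119, a membrane protein used to tell adult microglia from other macrophages, at 11.4 and 9.18 TPM (ENSMUSG00000054675.5, chromosome 5, 113793729 to 113800516). It was the fifth highest member. Cx3cr1, the fractalkine receptor, had 2.95 and 3.09 TPM, and P2ry12, the ADP receptor of process motility, had 1.38 and 1.13. Trem2, a lipid receptor, stayed just below the detection level at 0.80 and 0.96 TPM from 14 and 21 counts, while its posterior mean TPM was 1.12 and 1.20. Siglech, a sialic acid receptor, had 0.33 and 0.27 TPM from 10 and 12 counts. Within the class the order Tmem119, Cx3cr1, P2ry12, Trem2, Siglech was the same in both libraries. Tmem119 stood 8.29 and 8.12 times above P2ry12 and 3.88 and 2.97 times above Cx3cr1 in TPM. Tmem119 is also known from osteoblast-lineage cells, and connective tissue genes were abundant here: all 7 mesenchyme genes on a list were detected and summed to 673.0 and 682.9 TPM, with Col3a1 at 300.01 and 319.68. What mesenchyme contributed to Tmem119 was not tested. P2ry12 lies within Med12l on the other strand, and the handling of strand is not given in the sources used here, so reads of Med12l may be counted in it. Runx1, Cx3cr1 and F13a1 likewise overlap exons of Gm26626, Gm33858 and Gm30489 on the other strand.

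Of 9 further genes enriched in adult microglia, 6 were detected. Sall1, a zinc finger factor that maintains microglial identity and is also made by neural progenitors, had 22.0 and 26.1 TPM. Olfml3, a secreted protein, had 7.73 and 5.89 TPM, and the receptor-like gene Fcrls had 4.57 and 3.94. The median of these 9 genes was 1.82 and 1.33 on the log2(TPM + 1) scale, beside 1.25 and 1.09 for the 5 members of the class.

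The border macrophage class ran from the highest member to the lowest. Pf4 (platelet factor 4, Cxcl4), a chemokine stored in platelets and expressed by border macrophages, had 50.8 TPM in replicate 1 and 43.4 in replicate 2 (47.1 ± 5.23, SD, n = 2; ENSMUSG00000029373.6, chromosome 5, 90772435 to 90773383). It stood at percentile 83.9 of protein-coding genes. F13a1, the catalytic subunit of coagulation factor XIII, had 5.82 and 5.44 TPM, and Mrc1, which encodes the mannose receptor CD206, had 3.18 and 2.98. Cd163, the haemoglobin scavenger receptor, was at 0 in both libraries, and a count of 3 would have stood for 0.0451 TPM in replicate 1 and 0.0312 in replicate 2. The intervals and floors given here cover counting error only. The 3 detected genes kept the same order in both libraries. Mrc1 was 2.30 and 2.64 times P2ry12 in TPM. Against other microglia-enriched members its place varied. Mrc1 was above Trem2 and Siglech in both libraries and below Tmem119 (11.4 and 9.18 TPM) in both. Cx3cr1, at 2.95 and 3.09 TPM, was below Mrc1 in replicate 1 and above it in replicate 2.

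Pf4 and F13a1 are also products of the megakaryocyte and platelet lineage, whose genes were present. Of 7 megakaryocyte and platelet genes, 4 were detected: Ppbp, a platelet chemokine encoded beside Pf4, at 12.6 and 12.3 TPM, Itga2b (CD41) at 5.90 and 3.98, Gp1bb at 4.71 and 5.06 and Gp9 at 1.93 and 2.22. The list summed to 28.1 TPM in replicate 1 and 25.6 in replicate 2. Pf4 stood 4.03 and 3.54 times above Ppbp. The part of megakaryocytes and platelets in the Pf4 and F13a1 values was not tested. Without Pf4 and Tmem119 the other members summed to 131.9 and 125.0 TPM, of 194.1 and 177.6 in all.

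Of 9 further border macrophage genes, 3 were detected. Stab1, a scavenger receptor also found on endothelium, had 21.4 and 18.5 TPM. Lyve1, a hyaluronan receptor of perivascular macrophages and lymphatic endothelium, had 1.85 and 2.45 TPM, and Ms4a6c had 1.14 and 1.91. Folr2 followed below the level at 0.80 and 0.97 TPM. All 7 endothelial genes on a list were detected, at 10.4 to 46.4 TPM in replicate 2, and their part in Stab1 and Lyve1 was not tested.

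**Figure D2:**
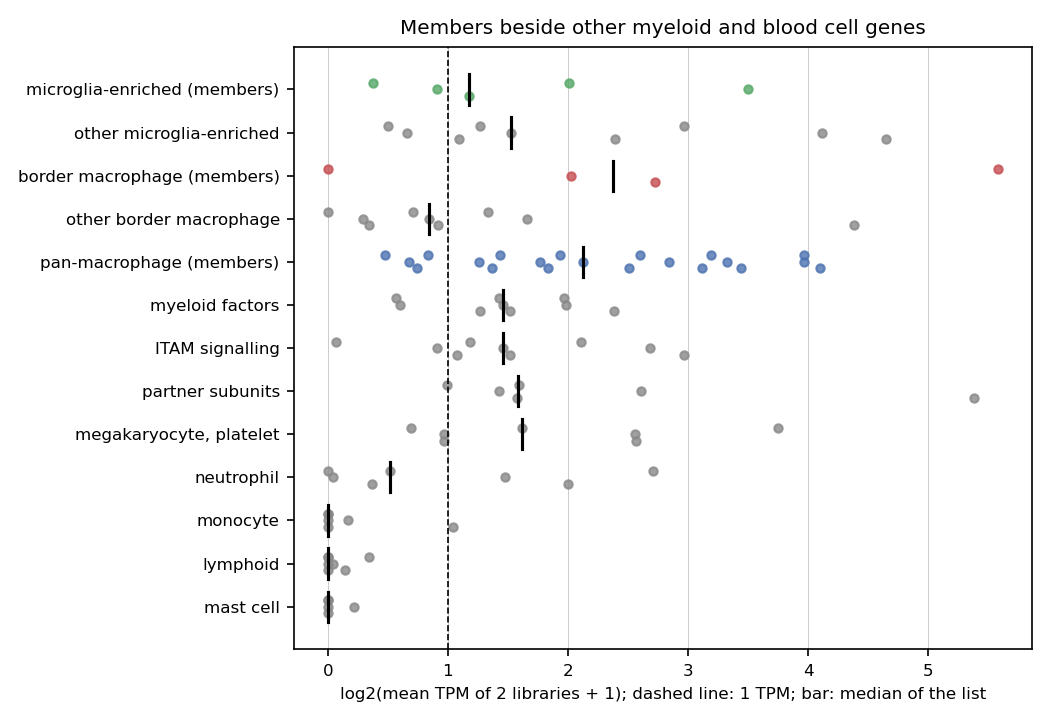
Each point is a gene at log2(mean TPM of the 2 libraries + 1), by list. Members are coloured, other genes are grey, the black bar is the list's median and the dashed line marks 1 TPM. Monocyte, lymphoid and mast cell genes gather at 0, while myeloid, ITAM and megakaryocyte lists lie on both sides of the line.

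The 3 classes were then set side by side by their medians on the log2(TPM + 1) scale, as a description without a test because the classes are unequal in size and hold different genes. The pan-macrophage median was 2.29 and 2.13, the microglia-enriched median 1.25 and 1.09 and the border macrophage median 2.42 and 2.34. The pan-macrophage median exceeded the microglia-enriched one by 1.04 in each library. It was lower than the border macrophage median, with differences of -0.13 in replicate 1 and -0.21 in replicate 2 (-0.17 ± 0.0581). That second direction did not hold throughout: with Pf4 left out the difference was 0.18, and by posterior mean TPM it was 0.05 in replicate 1 and -0.14 in replicate 2. In summed TPM the pan-macrophage class held 117.4 and 111.2, the border macrophage class 59.8 and 51.8 and the microglia-enriched class 16.9 and 14.6. Pf4 supplied most of the border sum and Tmem119 most of the microglia-enriched sum.

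Genes that define other blood cells were checked because some of those cells share pan-macrophage genes. Monocyte genes were nearly absent: of 6, only Plac8 was detected, at 1.01 and 1.12 TPM, Ccr2 had 0.17 and 0.08 and the defining marker Ly6c2 had no count. Of 7 neutrophil genes 3 were detected, S100a8 at 3.79 and 7.25 TPM, the granule enzyme Mpo at 3.17 and 2.83 and S100a9 at 1.25 and 2.30, while Ly6g had no count. The neutrophil list summed to 8.90 and 13.2 TPM and the monocyte list to 1.18 and 1.20. None of 7 lymphoid and none of 5 mast cell genes was detected, and they summed to 0.51 and 0.30 TPM and to 0.10 and 0.23 TPM. All 5 genes of erythromyeloid progenitors were detected. Cd34, also an endothelial gene, had 43.3 and 40.3 TPM, Kit 15.02 and 15.44, Myb 7.19 and 6.30 and Gata1 4.43 and 4.23. Which cells of the unsorted tissue these 5 genes came from was not tested. Blood was plainly present in the tissue, since all 7 erythroid genes were detected and summed to 15177 and 16195 TPM. All 6 neural progenitor genes were detected, at 40.7 to 1016 TPM in replicate 2. The label was checked on transcription factors of the embryonic forebrain, with Emx2 at 60.4 and 62.6 TPM, Lhx2 at 154.3 and 138.8 and Six3 at 13.5 and 13.8. The part of neutrophils and progenitors in Lyz2, Fcer1g, Spi1 and other shared genes was not tested.

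Other transcription factors of the myeloid lineage were at the level of Spi1 and Irf8. Of 9, 7 were detected, among them Ikzf1 at 3.27 and 2.66 TPM, Maf at 2.64 and 3.16 and Irf5 at 2.06 and 1.67.

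Genes of signals that macrophages of the brain receive, and of activators of such signals, were mostly detected in the tissue. Of 10 niche ligands and activators, 8 were detected, with the chemokine Cxcl12 at 41.1 and 44.7 TPM, the integrin alpha chain Itgav at 34.5 and 38.0, the inhibitory ligand Cd200 at 26.2 and 21.5 and the integrin Itgb8 at 17.0 and 19.9. The 2 ligands of Csf1r differed in level: Csf1 had 6.29 and 4.77 TPM from 340 and 398 counts, and Il34 had 0.20 and 0.24 TPM from 5 and 4 counts. The deposited posterior mean TPM was 6.97 and 5.39 for Csf1 and 0.85 and 0.65 for Il34, so the size of the gap is uncertain. Both ligands were named after their values were seen, as was the ligand Tgfb1. Tgfb1 was not detected, at 0.76 and 1.15 TPM. Of 8 further receptors, 6 were detected, with Tgfbr1 at 75.3 and 80.8 TPM, Csf2ra at 8.75 and 8.74, Cxcr4 at 7.07 and 7.90 and Tgfbr2 at 7.48 and 7.23. These receptors are not limited to macrophages.

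How far the pools differed was then asked for each member. Counts were scaled by edgeR's TMM factors and compared with an exact two-sided binomial test, with Benjamini-Hochberg adjustment over 18297 genes that had 10 or more counts summed. This test compares these 2 libraries and not a condition. Of 29 members tested, 3 passed at an adjusted p of 0.05, where 23.4% of all tested genes passed. The members had few counts, with a median of 207.5 summed over the libraries and a range of 22 to 1060 among those with any.

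Tmem119 was higher in replicate 1, with 375 counts against 418 in the deeper replicate 2 and a log2 ratio of 0.37 (95% interval 0.17 to 0.58, adjusted p = 0.00263 by the exact binomial test). Tyrobp was also higher in replicate 1, with 86 against 78 counts and a log2 ratio of 0.67 (0.21 to 1.13, adjusted p = 0.0180 by the exact binomial test). Ptprc was lower in replicate 1, with 53 against 119 counts and a log2 ratio of -0.63 (-1.13 to -0.16, adjusted p = 0.0321 by the exact binomial test). When the spread between libraries was estimated over all genes with edgeR's common dispersion (a coefficient of variation of 7.63%), edgeR's exact test called 0 of the 29, and 1.19% of all tested genes. Of the members, 3 had an unadjusted p under 0.05 in that test and 7 in the binomial test. Over all 18297 tested genes, 1461 and 6167 did. The edgeR adjusted p was 0.400 for Tyrobp, 0.504 for Ptprc and 0.617 for Tmem119.

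The other members did not pass. C1qa (log2 ratio 0.45, adjusted p = 0.0510), Ctss (0.49, adjusted p = 0.0591), Pf4 (0.22, adjusted p = 0.0891) and Runx1 (-0.37, adjusted p = 0.139) came closest in the exact binomial test. Members split evenly, with 15 higher in replicate 1, 14 higher in replicate 2 and a median log2 ratio of 0.03, against -0.0043 over all tested genes. Csf1r, the best counted member, had a log2 ratio of -0.02 with an interval of -0.20 to 0.16, and C1qb had -0.11 with -0.35 to 0.13. For Trem2 and Siglech the intervals ran from -1.14 to 0.99 and from -1.10 to 1.60, so their library differences were only loosely bounded at this depth. The deposited credibility bounds of the 2 libraries did not overlap for 1 member, Tyrobp, at 9.33 to 14.3 TPM in replicate 1 and 5.89 to 9.17 in replicate 2. Non-overlapping bounds were not counted over all genes, so the usual share is not known.

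**Figure D3:**
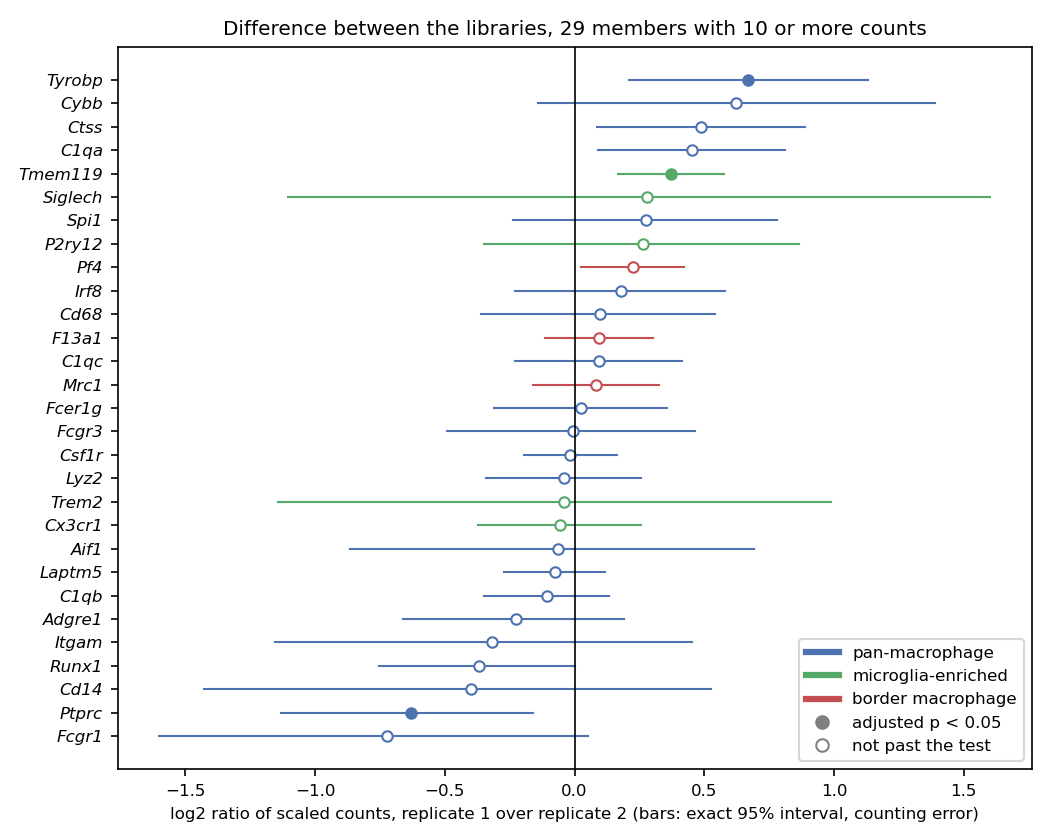
Log2 ratio of scaled counts, replicate 1 over replicate 2, for the 29 members with 10 or more counts, with bars for the exact 95% interval of counting error and colour for class. Filled points, Tyrobp, Tmem119 and Ptprc, had an adjusted p under 0.05, and the points lie on both sides of 0.

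Transcript tables were read for the members with 5 TPM or more in both libraries. Tyrobp, C1qa, C1qb, Lyz2 and Pf4 each had a single annotated transcript, so their shares were fixed by the annotation. F13a1 had all its TPM on 1 of 2 transcripts. Csf1r-202 (96.3% and 100%), Fcer1g-201 (96.0% and 95.9%) and Tmem119-201 (100% and 95.6%) held nearly all of the TPM of their genes. Laptm5 was divided between Laptm5-207 at 60.0% and 45.3% and the shorter Laptm5-210 at 31.3% and 36.9%. Cd68 was divided between the coding Cd68-201 at 70.3% and 58.5% and Cd68-203, annotated as a processed transcript, at 29.7% and 35.5%. Shares of short transcripts rest on few counts, since Cd68-203 had 11.9 and 20.3 counts and Laptm5-210 had 39.7 and 81.7.

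Lower members were examined after their values were seen. Runx1 starts at a distal or a proximal promoter: the distal Runx1-201 held 23.97% and 24.42% of its TPM and the proximal Runx1-202 38.4% and 61.6%. Other transcripts start near Runx1-202. The coding Runx1-203 held 23.3% and 12.8%, and Runx1-206, annotated as a retained intron, 14.4% and 0%. Cx3cr1-202 held 76.3% and 81.2% of Cx3cr1 TPM. P2ry12-202, which starts within the gene, held 66.9% and 49.6% of P2ry12 TPM and P2ry12-201 the other 33.1% and 50.4%. For Ptprc the main coding transcript Ptprc-203 held 27.6 of 53 counts in replicate 1 and 103.3 of 119 in replicate 2, so the higher Ptprc count of replicate 2 lay in that transcript.

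**Figure D4:**
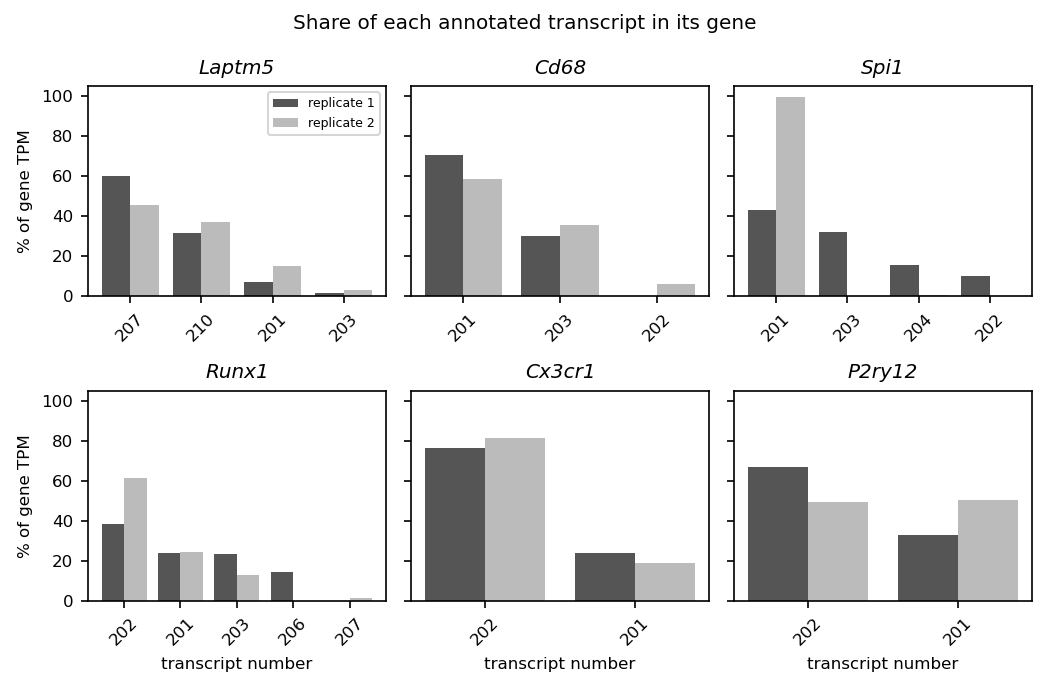
Share of gene TPM held by each annotated transcript with any signal, in replicate 1 (dark bars) and replicate 2 (light bars), for 6 members with more than 1 transcript. Spi1 differs most, with Spi1-201 at 42.8% in replicate 1 and 99.4% in replicate 2, while the leading Cx3cr1 transcript held 76.3% and 81.2%.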

How the data were processed

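Total RNA-seq libraries of 2 embryo pools were analysed from the deposited gene and transcript tables. The authors' tables hold expected counts, TPM and FPKM. Per the file headers they also give posterior mean TPM with lower and upper credibility bounds, at a level no header names. The build was mm10 and the annotation GENCODE M4, per the deposited text notes. What aligned, quantified and filtered the reads, and how strand was handled, is not given in the sources used here. Entries with numeric identifiers (26248) and 97 spike-ins were left out of library sizes and tests, and together took 5.66% of expected counts in replicate 1 and 5.49% in replicate 2. Spike-ins held 13.0% and 12.7% of TPM.

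Genes were named by GENCODE M21 (GRCm38), matched by stable identifier. The members and all other gene lists were chosen with earlier results of these data known. Tests used rounded expected counts. Library sizes were scaled by TMM (edgeR 4.0.16, R 4.3.3; factors 1.00 and 0.997), and the exact binomial test used SciPy 1.17.1 with a prior of 0.5 counts in log2 ratios. edgeR's common dispersion was estimated from the same 2 libraries as if they were replicates of one another. DESeq2 1.42.0 size factors were an alternative. No molecular identifiers are described, so reads are not independent molecules. The replicates are separate tissue collections per the labels. Both tests were tried on simulated counts that held counting error only, so the simulation did not cover variation between pools. All 30 members are named, with the 4 genes of highest mean TPM in each other list, genes of other cell types at 1 TPM or more in both libraries, and transcripts with 20% or more of their gene for members at 5 TPM or more. Some genes the rule took are not reported here, and C3, Il34, Csf1, Itgb2, Ly6c2, Ccr2 and Ly6g and transcripts of lower members were named after their values were seen. The forebrain genes were added last, as a check of the tissue label.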

Additional observations from a re-analysis of the deposited data

How the results depend on the processing

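The number of detected members was 26 at 0.5 TPM, 18 at 2 TPM, 25 by the posterior mean TPM, where Itgam and Trem2 were added, 29 by 10 or more expected counts and 23 in each library alone. Shares over all genes were not computed at these settings. The members' share of all TPM was 0.0157% in expected counts, 0.0213% over Ensembl identifiers only, and 0.0178% to 0.0194% without replicate 1 or 2. The pan-macrophage minus microglia-enriched median was 1.47 with a pseudocount of 0.1, 1.12 by posterior means, 0.66 with means in place of medians and 0.91 with Cx3cr1 and Trem2 moved to the pan-macrophage class. The pan-macrophage minus border macrophage median was -0.046 by posterior means (0.05 in replicate 1 and -0.14 in replicate 2), -0.52 without Cd163 (the 10-count minimum), -0.33 with means, -0.61 with Lyz2 as a border gene, and turned to 0.18 without Pf4. Leaving out a library gave 1.04 for the first difference and -0.21 to -0.13 for the second. The number of members that differed between libraries was 3 with DESeq2 size factors and with no minimum count, 4 at 50 or more counts, where C1qa was added, and 0 by edgeR's exact test. In that order, calls over all tested genes were 4304 of 18297, 4045 of 23775, 4150 of 14789 and 218 of 18297. A posterior mean for each member was added after seeing the data. It moved 13 members by more than the spread between libraries, but only Cybb, Itgam and Siglech, each at 0.60 TPM or less, by over 1.5 times, and members of 5 TPM or more by at most 11.7%. No paired analysis was possible because the series has 1 group. Depth limits Siglech, Trem2, Cd14, Itgam, Fcgr1, Aif1 and Cybb most, which had fewer than 50 counts in each library.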

Other observations

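Genes of the lysosome and of engulfment that macrophages share with other cells were mostly more abundant than the median member. Of 10, 9 were detected, with Lamp1, a lysosomal membrane protein, at 195 and 187 TPM, the lipid carrier Apoe at 119.1 and 98.5, the protease Ctsd at 118.2 and 102.8 and Ctsl at 75.1 and 75.9. The engulfment receptor Mertk, at 3.59 and 3.53 TPM, was near the median member (3.28 and 3.04), and the scavenger receptor Cd36, at 0.57 and 0.56, was below it. Mertk and Cd36 were named after their values were seen.

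Genes that rise in activated or proliferative-region microglia after birth were mixed. Of 8, 4 were detected, the tetraspanin Cd9 at 32.0 and 37.5 TPM, the growth factor Igf1 at 16.5 and 18.5, lipoprotein lipase Lpl at 11.8 and 10.7 and osteopontin Spp1 at 3.19 and 2.73. The integrin Itgax (CD11c) was at 0 TPM in both libraries and Clec7a at 0 and 0.02 TPM, and both were named after their values were seen. Cd9, Igf1 and Lpl are not limited to microglia.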
